A study of Mus musculus with 10 samples.

Results

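Described here are 10 genes of the piRNA pathway and of germ granules, out of 55487 genes in the table of mouse ovary read counts: Mov10l1, Ddx4, Piwil1, Piwil2, Piwil4, Mael, Tdrd1, Tdrd9, Tdrd12 and Pld6. All 10 were found by their symbol in the table. They were selected on these same read counts, that is, by name for their role and with earlier results of the 10 ovaries known, among them the very low reads of Mov10l1 in the Aged group. Their values, and the calls made on them below, are therefore given as a description and not as a test.

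piRNAs are small RNAs of the germ line that guide PIWI proteins to transposon transcripts. Their precursors are handled by helicases and by a mitochondrial nuclease, and Tudor-domain proteins hold the PIWI proteins and helicases together in cytoplasmic granules called nuage. In the mouse the pathway is best known from the testis, where its loss leads to male sterility. Oocytes express many of the same genes and also silence transposons with endogenous siRNAs made by Dicer.

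Whole ovaries of mice on a C57BL/6J background were sequenced, one library per ovary, to ask how ovarian gene expression differs with age and after CEFFE. CEFFE is a cell-free liquid extract of human fat. There were 4 Control ovaries from mice aged 8 weeks, 3 Aged ovaries from mice aged 11 months by the labels (the methods give a slightly younger age), and 3 Aged+CF ovaries from mice of the same labelled age. Aged+CF mice received 200 μL of CEFFE with 3 μg/μL of protein, repeatedly through the tail vein, while Control and Aged mice received saline. All mice in the 3 groups were injected with 10 IU of PMSG, a gonadotropin that stimulates follicle growth, and the ovaries were taken 48 h later. In whole ovaries, fewer cells of a type and less RNA per cell cannot be told apart.

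The libraries held 15761789 to 21318254 reads on genes. The summed level of 22 oocyte markers lay at 673 to 889 CPM (library-scaled counts, with TMM factors) for Control ovaries, 93.9 to 258 for Aged ovaries and 312.5 to 447 for Aged+CF ovaries, so the oocyte markers were present in every group. Aged replicate 34 stood apart. It had the lowest oocyte marker sum, with Mos and Rfpl4 at 0. Kit (54.2 CPM) and Tle6 (21.7 CPM) made up most of that sum, while Zp1, Zp2 and Bmp15 were at 0.607, 0.717 and 0.496 CPM. Aged replicate 34 also had 186 CPM of B and plasma cell markers against 8.75 and 23.7 CPM in the other Aged ovaries. Its ciliated oviduct markers were at 78.2 CPM against 8.04 and 11.1. Control replicate 33 had 120 CPM of the same oviduct markers, against 12.1 to 13.99 in the other Control ovaries. Values without Aged replicate 34 are therefore given beside the results that move with it.

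Most of these genes share a short DNA motif near their start, which is shown here because it played no part in their choice. Of 6 motifs searched on both strands in the 250 bases before the RefSeq start site, the palindromic E-box CACGTG was found in 7 of the 9 genes that have an entry (Piwil2 has none), against 6.02% of 32851 promoters. Counted per gene over all its entries, the share was 6.86% of 27025 genes. The motif was absent from the windows of Tdrd12 and Piwil4. CACGTG holds a CpG (a C followed by a G), and the 7 promoters with it had 8 to 31 CpG. The median over all promoters was 6, and Tdrd12 and Piwil4 had 5 and 10. The shares are not matched for CpG. The windows below are from RefSeq on GRCm38.p6, written 5′ to 3′ on the strand of the gene, with CACGTG in capitals.
Mael (chr1:166238950-166238979, minus strand): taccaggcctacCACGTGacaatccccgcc
Piwil1, first site (chr5:128736055-128736084, plus strand): aaaaccgccaccCACGTGgcagccaatcag
Piwil1, next site (chr5:128736080-128736109, plus strand): atcagggcccagCACGTGtccacctcgccg
Pld6 (chr11:59787673-59787702, minus strand): ggggcgggctggCACGTGttgggcgcgcaa
Tdrd9, first site (chr12:111971382-111971411, plus strand): ggtctccataaaCACGTGcctgtccaggtc
Tdrd9, next site (chr12:111971452-111971481, plus strand): gcacgaggctccCACGTGcatgcagggcct
Ddx4 (chr13:112652322-112652351, minus strand): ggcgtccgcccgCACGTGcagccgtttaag
Mov10l1 (chr15:88982744-88982765, plus strand): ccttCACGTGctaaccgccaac
Tdrd1 (chr19:56826186-56826208, plus strand): tggggctgcgcgCACGTGggagt

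The motif lay at no fixed distance. Its first base was 11 bases before the start site in Tdrd1, 29 in Ddx4 and 33 in Pld6, but 223 in Mael and 246 in Mov10l1. Tdrd9 carried it 165 and 95 bases before the start, and Piwil1 179 and 154. The Ddx4 window lies inside an exon of Ddx4 in GENCODE M21, in which the nearest start is 9 bases from the RefSeq start and the outermost start lies further upstream. The same motif was found in 3 of 16 other piRNA pathway genes (Dnmt3l, Fkbp6 and Stk31), in 3 of 15 oocyte markers, in 0 of 14 RNA granule genes and in 0 of 9 genes of the microRNA and siRNA machinery. CANNTG, which takes in CACGTG, was in 8 of 9 against 66.2%, CCAAT in 6 of 9 against 33.8%, AACNGTC in 2 of 9 against 6.64%, and TAATTG and TGACGTCA in 0 of 9 against 7.17% and 1.55%. A match in these letters is a description and not a binding site.

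Per gene length, the 10 genes ranked differently in the 3 groups. In Control, Tdrd1 had the highest level at 2.40 ± 0.113 FPKM (fragments scaled to gene length and library total; SD, n = 4). Mael (1.04 ± 0.0921 FPKM), Ddx4 (1.03 ± 0.174 FPKM) and Piwil2 (0.904 ± 0.202 FPKM) followed and did not differ from each other beyond their spread. Pld6 stood at 0.716 ± 0.290 FPKM, Tdrd9 at 0.547 ± 0.0947 FPKM, and Tdrd12 and Mov10l1 at 0.441 ± 0.133 and 0.432 ± 0.0541 FPKM. Piwil4 (0.119 ± 0.0486 FPKM) and Piwil1 (0.0953 ± 0.0277 FPKM) were the lowest and overlapped. In Aged the order was led by Pld6 at 0.397 ± 0.187 FPKM, with Tdrd1 at 0.372 ± 0.243 FPKM and Ddx4 at 0.349 ± 0.258 FPKM within its spread, and Mov10l1 was second to last at 0.0283 ± 0.0311 FPKM (n = 3 each). In Aged+CF, Tdrd1 again had the highest level at 1.14 ± 0.222 FPKM.

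Mov10l1 encodes the RNA helicase that brings piRNA precursors into processing. Its reads numbered 32, 36, 36 and 45 in the Control ovaries, 2, 5 and 0 in the Aged ovaries, and 8, 11 and 8 in the Aged+CF ovaries. On the CPM scale its mean level was 2.08 ± 0.277 for Control (SD, n = 4), 0.157 ± 0.179 for Aged and 0.489 ± 0.131 for Aged+CF (n = 3 each). No 2 of the groups overlapped, although the highest Aged ovary (0.353 CPM) and the lowest Aged+CF ovary (0.375 CPM) were close. The log2 fold change between Aged and Control was −3.76 ± 0.63 (standard error) and that between Aged+CF and Aged 1.68 ± 0.70, and without Aged replicate 34 the values were −3.11 and 1.04. Without Aged replicate 33, which held 5 of the 7 Aged reads, they were −4.98 and 2.93. Mov10l1 lies on chromosome 15 at 88982909 to 89055152 on the plus strand of GRCm38, and the 1 gene that overlaps it shares none of its exonic bases. The 10 members all lie on different chromosomes.

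Pld6 encodes the mitochondrial nuclease that cuts piRNA precursors. Its reads numbered 18, 46, 30 and 39 in Control ovaries, 27, 9 and 20 in Aged ovaries, and 23, 22 and 28 in Aged+CF ovaries. The Control and Aged ovaries overlapped, and the log2 fold change in Aged vs Control was −0.73 ± 0.40. In Aged+CF vs Aged it was 0.21, or 0.18 without Aged replicate 34 and −0.06 without Aged replicate 33. Mov10l1 and Pld6, which act on the same precursors, thus had ratios of Aged to Control mean CPM of 0.0756 and 0.595.

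Of the 3 PIWI genes, Piwil2 had the most reads. Piwil2, which encodes MILI, had 62, 93, 86 and 113 reads in Control ovaries, 30, 16 and 36 in Aged ovaries, and 34, 53 and 50 in Aged+CF ovaries. Every Control ovary was above every other ovary, while Aged and Aged+CF overlapped. Its log2 fold change against Control was −1.59 ± 0.30 in Aged, or −1.71 without Aged replicate 34, and Aged+CF lay 0.57 above Aged on the same scale. In Aged replicate 34 it was the member with the most reads, at 36, where Mov10l1, Mael and Piwil1 were at 0.

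Piwil4, which encodes the nuclear PIWI protein MIWI2, had 6, 14, 22 and 16 reads in Control ovaries, 25, 10 and 20 in Aged ovaries, and 20, 8 and 16 in Aged+CF ovaries. The 3 groups overlapped, and its log2 fold change of 0.46 ± 0.45 in Aged vs Control was the one positive value among the 9 genes tested. It shares 137 exonic bases, 2.54% of its own, with the antisense gene Gm10706, and strand use in the counting is not given in the sources used here. Piwil1, which encodes MIWI, had 6, 8, 7 and 12 reads in Control ovaries, 5, 1 and 0 in Aged ovaries, and 1, 1 and 9 in Aged+CF ovaries. It did not pass the filter on low counts and has no fold change here.

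The Tudor-domain genes carry scaffold proteins of nuage. Tdrd1, whose protein binds methylated PIWI proteins, had 230, 205, 272 and 262 reads in Control ovaries, 47, 52 and 10 in Aged ovaries, and 101, 102 and 173 in Aged+CF ovaries. The 3 groups did not overlap, and the Control ovaries were the most alike of any member, at 13.5 ± 0.503 CPM against 2.34 ± 1.61 in Aged and 6.59 ± 1.32 in Aged+CF. Against Control, the log2 fold change was −2.54 ± 0.47 for Aged and −1.03 for Aged+CF, and Aged+CF exceeded Aged by 1.51. Without Aged replicate 34, the value of Aged against Control was −2.02 and that of Aged+CF against Aged 1.01.

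Tdrd9 joins a helicase and a Tudor domain in one protein. Its reads numbered 46, 54, 59 and 76 in Control ovaries, 14, 6 and 14 in Aged ovaries, and 20, 14 and 25 in Aged+CF ovaries. The Aged and Aged+CF ovaries overlapped, and both groups lay below Control, with log2 fold changes of −2.25 ± 0.31 (−2.31 without Aged replicate 34) and −1.64 against it. Tdrd12, a further Tudor protein with a helicase-like domain, had 31, 52, 33 and 45 reads in Control ovaries, 14, 14 and 1 in Aged ovaries, and 15, 25 and 39 in Aged+CF ovaries. Control and Aged ovaries were separate, and Aged+CF ovaries overlapped with both. The log2 fold change of Tdrd12 between Aged and Control was −1.88 ± 0.63, and −1.28 without Aged replicate 34, which held 1 read.

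The remaining members are granule proteins. Mael, a component of nuage that acts with the PIWI pathway, had 37, 37, 42 and 49 reads in Control ovaries, 8, 6 and 0 in Aged ovaries, and 14, 10 and 19 in Aged+CF ovaries. The 3 groups did not overlap. Aged differed from Control by −2.95 ± 0.63 on the log2 scale, or −2.29 without Aged replicate 34. Aged+CF differed from Aged in Mael by 1.36, or 0.725 without that ovary. Ddx4, the vasa helicase used as a marker of germ cells, had 53, 53, 85 and 78 reads in Control ovaries, 41, 17 and 9 in Aged ovaries, and 32, 47 and 43 in Aged+CF ovaries. All Control ovaries were above all Aged ovaries, with a log2 fold change of −1.43 ± 0.44, −0.98 without Aged replicate 34 and −2.11 without Aged replicate 31. Aged+CF and Aged ovaries overlapped in Ddx4, with a log2 fold change of 0.66 between them, or 1.37 without Aged replicate 31 and 0.23 without Aged replicate 34.

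**Figure D1:**
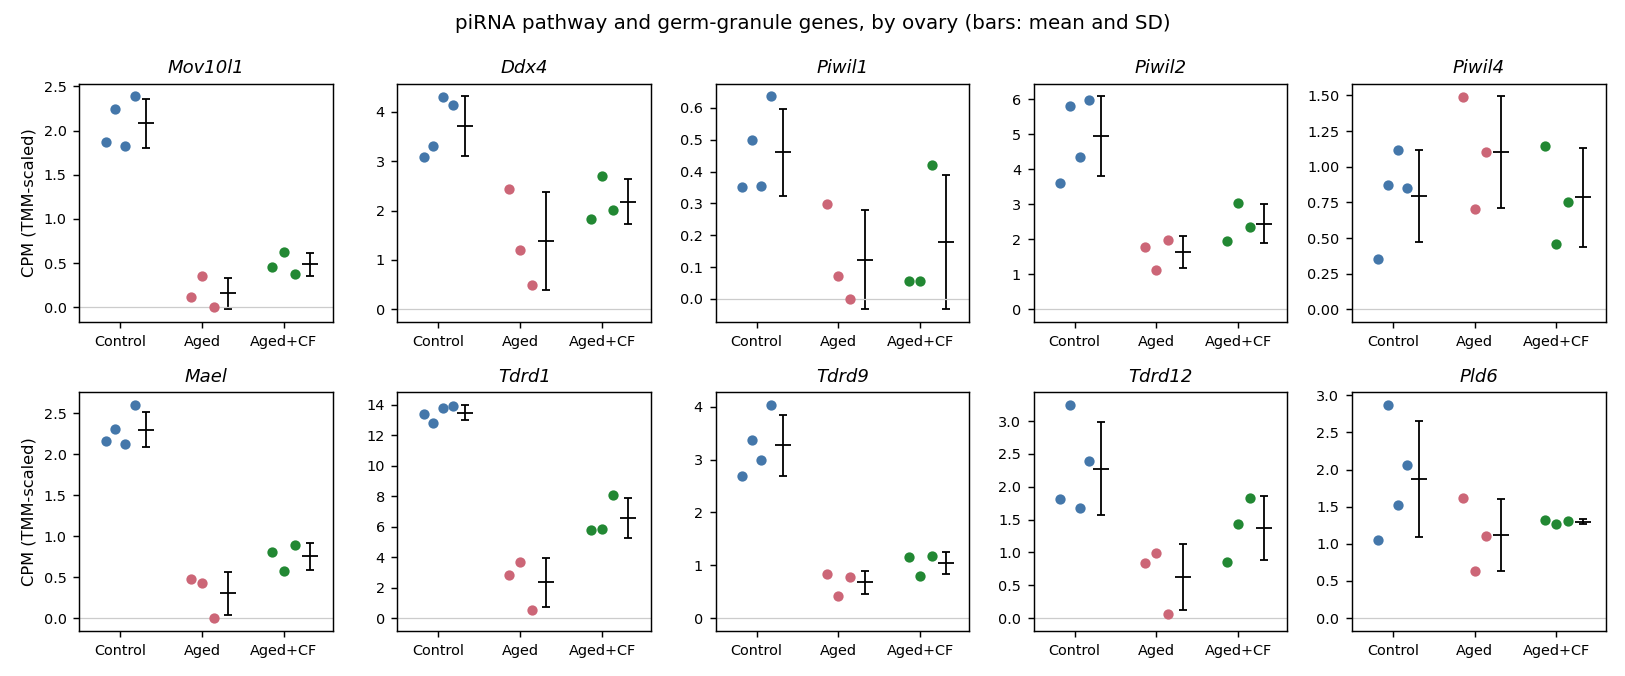
Level of each of the 10 genes in every ovary, as TMM-scaled CPM on a linear axis set per gene. Points are the 4 Control, 3 Aged and 3 Aged+CF ovaries and the bars are the mean and SD; in Mov10l1, Mael and Tdrd1 the 3 groups are separate, and in Piwil4 and Pld6 they overlap.

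Across the members, 9 of 10 passed the filter on low counts, and 8 of these 9 had a negative log2 fold change in Aged vs Control, with a median of −1.88 against −0.001 over all 18956 genes tested, or −1.71 without Aged replicate 34. With edgeR and limits of 1.5 for the fold change and 0.05 for the adjusted p, 5 members were lower in Aged (Mov10l1, Piwil2, Mael, Tdrd1 and Tdrd9) and 0 were higher, where 6.06% of all genes were lower and 5% higher. At an unadjusted p under 0.05 the same fold gave 7 lower members, against 9.44% of all genes. In 7 of the 9 tested members, and in Piwil1, all Aged ovaries were below all Control ovaries, against 15.6% of all genes tested. As the members were chosen with these values known, nothing is read from these shares.

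Aged+CF was compared with Aged to ask how the ovaries of treated mice differed, and this comparison shares its Aged ovaries with the one above. The median log2 fold change of the 9 members was 0.66, against −0.021 over all genes. At the adjusted p, 0 members passed in edgeR, and 1 gene of the whole table did (0.00528%). Without Aged replicate 34, 1 member was higher at the adjusted p, against 0.713% of all genes. At the unadjusted p, Mov10l1 and Tdrd1 were higher in Aged+CF, against 3.91% of all genes higher and 4.05% lower, and with DESeq2 3 members were higher and 0 lower, against 3.96% of all genes higher. The count was 1 without Aged replicate 34, where 5.67% of all genes were higher, and also 1 without any 1 of the 3 Aged+CF ovaries. In Mov10l1, Mael and Tdrd1 all Aged+CF ovaries were above all Aged ovaries, against 10.2% of all genes. Since the members were chosen with earlier results of these ovaries known, nothing is read from these calls and shares either.

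Aged+CF ovaries also differed from Control. The median log2 fold change was −1.01, with Mov10l1 the lowest at −2.08 and Piwil4 the nearest to 0 at −0.03. At the adjusted p, 0 members and 0.179% of all genes passed in edgeR, and with DESeq2 4 members were lower, against 1.15% of all genes. In edgeR without Aged replicate 34, 4 members were lower at the adjusted p, against 0.869% of all genes. At the unadjusted p, 5 members were lower, against 4.36% of all genes lower and 3.33% higher. In 6 members (Mov10l1, Ddx4, Piwil2, Mael, Tdrd1 and Tdrd9) all Aged+CF ovaries were below all Control ovaries, against 12.2% of all genes. These calls and shares are a description for the same reason.

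**Figure D2:**
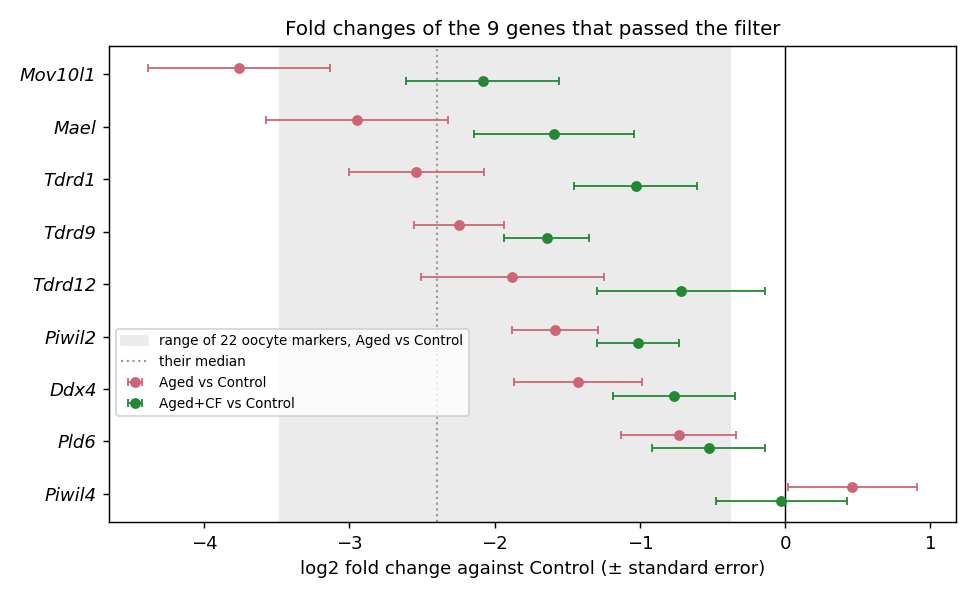
Log2 fold change against Control, with its standard error, for the 9 genes tested, in Aged (red) and Aged+CF (green). The grey band is the range of 22 oocyte markers in Aged vs Control, −3.48 to −0.38, and the dotted line their median of −2.40; Mov10l1 in Aged, at −3.76, is the one value to the left of the band.

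Oocyte markers were lower in Aged along with the piRNA genes. In edgeR, 16 of 22 oocyte markers fell in Aged vs Control at the adjusted p and 0 rose, with a median log2 fold change of −2.40. At the same limits 6.06% of all genes fell and 5% rose. Markers of other cells differed as well. Of 7 theca and luteal markers 6 rose in Aged vs Control and 0 fell, with a summed level of 9219 ± 2254 CPM for Control ovaries, 25360 ± 9158 for Aged ovaries and 15520 ± 2968 for Aged+CF ovaries. Of 5 endothelium markers 4 rose, and of 6 B and plasma cell markers 4 rose. Of 8 granulosa markers 1 fell and all had negative log2 fold changes, with a summed level of 5338 ± 873 CPM in Control and 3369 ± 414 in Aged. In stroma markers 0 passed in edgeR at the adjusted p or the unadjusted p. The part of these markers in the differences of the members was not tested.

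The members were also set against the reads on these markers in the same ovary. Mov10l1 had 2.54 to 2.77 reads per 1000 oocyte-marker reads in Control ovaries, 0.462, 1.40 and 0 in Aged ovaries, and 1.30, 2.02 and 0.838 in Aged+CF ovaries. With all 22 markers in the reference, each of the 6 ovaries from older mice stayed below each Control ovary. Mael was likewise lower, at 2.61 to 3.21 in Control ovaries, 1.85, 1.68 and 0 in Aged ovaries, and 1.84 to 2.27 in Aged+CF ovaries. Without Kit in the reference the gaps were narrow. Mov10l1 reached 2.61 in Aged+CF replicate 32 against a Control minimum of 2.77, and Mael 2.79 in Aged+CF replicate 30 against 2.84. Tle6 fell less in Aged vs Control than the median marker (log2 fold change −0.585 against −2.40). It held 393 of the 720 marker reads other than Kit in Aged replicate 34, against 894 of 10304 in Control replicate 31. Separation without Tle6 was not tested.

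Tdrd9 was lower than every Control ovary (3.81 to 4.53) in the 3 Aged+CF ovaries (2.57 to 3.25) and in Aged replicates 31 and 33 (3.24 and 1.68), but at 8.22 in Aged replicate 34.

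The remaining members overlapped with Control or were higher. Tdrd1 had 14.5 to 20.4 reads per 1000 oocyte-marker reads in Control ovaries, 10.9, 14.5 and 5.87 in Aged ovaries, and 16.4 to 18.8 in Aged+CF ovaries. With Kit in the reference, Aged+CF thus lay inside the Control range. Without Kit, Tdrd1 reached 24.2 in Aged+CF replicate 32 against a Control maximum of 22.3. Ddx4 had 3.74 to 6.36 in Control and 4.75 to 9.48 in Aged. Piwil2 had 5.38 to 6.74 in Control and 6.94, 4.47 and 21.1 in Aged, the last in Aged replicate 34. Piwil4 had 0.520 to 1.65 in Control and 2.79 to 11.7 in Aged, and was thus higher in every Aged ovary relative to the oocyte markers. Pld6 had 1.56 to 3.25 in Control and 2.51 to 11.7 in Aged, Tdrd12 had 2.47 to 3.67 and 0.587 to 3.91, and Piwil1, with few reads, 0.520 to 0.715 and 0 to 1.16. Kit, one of the markers and also expressed outside oocytes, made up 81.2 to 107 of each 1000 marker reads in Control. Its share was 193.5, 232.7 and 577 in Aged replicates 31, 33 and 34, and 183 to 225 in Aged+CF ovaries. Without Kit in the reference, the ratio of Aged to Control was 0.271 for Mov10l1 in place of 0.232, and 0.456 for Mael in place of 0.396. For Tdrd1 it was 0.796 in place of 0.592, for Ddx4 1.91 in place of 1.35, and for Piwil4 11.4 in place of 6.59. Piwil2 went from 1.73 to 3.11, Pld6 from 2.91 to 5.02, and Tdrd9 from 1.05 to 1.86. These ratios also rested on Aged replicate 34, whose marker reads were the fewest. Without that ovary and with Kit kept, the ratio was 0.348 for Mov10l1, 0.593 for Mael, 0.587 for Tdrd9, 0.721 for Tdrd1 and 0.908 for Piwil2. In the same setting it was 1.47 for Ddx4, 1.87 for Pld6 and 4.17 for Piwil4, and with Kit also left out 4.80 for Piwil4. The part of the oocyte markers in the differences of the members was not tested.

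**Figure D3:**
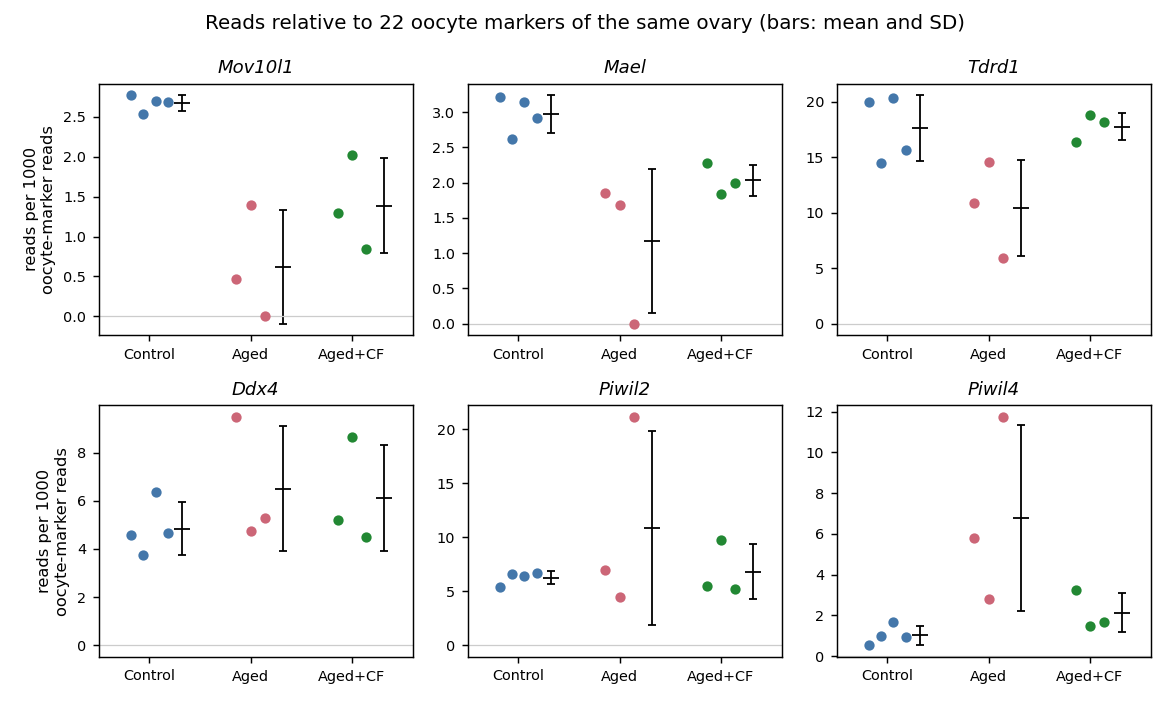
Reads of 6 of the genes per 1000 reads on 22 oocyte markers of the same ovary, on a linear axis set per gene, with the mean and SD of each group. With this reference, Mov10l1 and Mael are lower in all 6 Aged and Aged+CF ovaries than in any Control ovary, while Ddx4 and Piwil2 overlap and Piwil4 is higher in all 3 Aged ovaries.

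Further genes of the pathway were lower in Aged. Their list, like the granule and microRNA lists below, was written with earlier results of these data known. The calls and p-values of these lists are therefore a description and not independent support. Of 24 other piRNA pathway genes, 20 passed the filter on low counts. In edgeR 10 of these fell in Aged vs Control past both limits while 0 rose, against 6.06% of all genes lower and 5% higher. Their median log2 fold change was −1.20. The largest change was in Stk31, a Tudor-domain gene, from 1.37 ± 0.664 to 0.157 ± 0.179 CPM (log2 fold change −3.16, edgeR adjusted p = 0.0250). Henmt1, whose enzyme methylates the 3′ ends of piRNAs, fell from 1.77 ± 0.305 to 0.277 ± 0.247 CPM (−2.68, edgeR adjusted p = 0.0334), and shares 14.7% of its exonic bases with the antisense gene Gm9857. Gtsf1, a zinc finger partner of PIWI proteins, fell by 2.58 on the log2 scale. Gpat2, a mitochondrial acyltransferase-like protein that piRNA production needs, fell by 2.43. Asz1, a scaffold on germ cell mitochondria, fell by 2.09, and Tex15, which acts in piRNA-directed DNA methylation, fell by 1.77. Tdrkh, a Tudor protein on mitochondria, had 3.04 ± 0.368 CPM in Control and 4.01 ± 0.402 in Aged, which did not pass (edgeR adjusted p = 0.232), and shares 36.7% of its exonic bases with Oaz3 on the other strand. The count of 10 was 3 without Control replicate 32, 4 without Control replicate 34, 5 without Control replicate 31, and 6 without Control replicate 33, Aged replicate 31, Aged replicate 33 or Aged+CF replicate 30.

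In Aged+CF vs Aged, 0 of these 20 genes passed at the adjusted p in edgeR. At the unadjusted p and the same fold, 4 were higher and 1 was lower, against 3.91% and 4.05% of all genes. DESeq2 gave 5 higher, against 3.96% of all genes, and 1 lower. Henmt1 was at 1.07 ± 0.668 CPM in Aged+CF, with a log2 fold change of 1.97 against Aged (edgeR adjusted p = 0.248). Tex15 was at 36.6 ± 12.2 CPM in Aged+CF and 13.6 ± 9.04 in Aged, with a log2 fold change of 1.43 (edgeR adjusted p = 0.234). The edgeR count of 5 in either direction was 3 without Aged+CF replicate 30.

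Genes of germ cell and oocyte RNA granules were also lower in Aged. All 16 passed the filter. In edgeR 7 fell in Aged vs Control at the adjusted p and 0 rose, against 6.06% of all genes lower and 5% higher. The median log2 fold change was −1.82. Ybx2, a Y-box protein that stores maternal mRNA, fell from 17.6 ± 3.86 to 3.13 ± 1.44 CPM (−2.49, edgeR adjusted p = 0.00497). Dazl, an RNA-binding regulator of germ cell translation, fell from 6.07 ± 1.01 to 1.39 ± 0.650 CPM (−2.13, edgeR adjusted p = 0.00661). Tex19.1, a germ cell gene linked to transposon control, had the largest change at −3.06. Patl2 and Pabpc1l, which act on oocyte mRNA, fell by 2.15 and 2.14, and Nanos2, a translational repressor, fell by 1.92, with 49% of its exonic bases shared with an antisense gene. The count of 7 was 4 without Control replicate 32 or Control replicate 34. In Aged+CF vs Aged, 0 passed at the adjusted p in edgeR. At the unadjusted p 5 were higher, as many as with DESeq2, against 3.91% of all genes in edgeR and 3.96% in DESeq2. That count was 2 without Aged replicate 31 and 3 without each Control ovary in turn, Aged replicate 34, Aged+CF replicate 30 or Aged+CF replicate 34.

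The microRNA and siRNA machinery, which somatic cells also use, showed smaller differences. Of 10 genes, 0 passed both limits in Aged vs Control in edgeR and 0 with DESeq2, against 6.06% of all genes lower and 5% higher in edgeR. At any fold, 5 had an unadjusted p under 0.05 in edgeR, as did 5983 of the 18956 genes tested. Dicer1, the nuclease that makes microRNAs and siRNAs, stood at 139 ± 3.97 CPM in Control and 115 ± 9.75 CPM in Aged, and its log2 fold change of −0.28 (edgeR adjusted p = 0.0438) is short of the fold limit. Ago2, an Argonaute protein that carries these small RNAs, had a log2 fold change of −0.32 (edgeR adjusted p = 0.0765). The median of the 10 genes was −0.24.

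**Figure D4:**
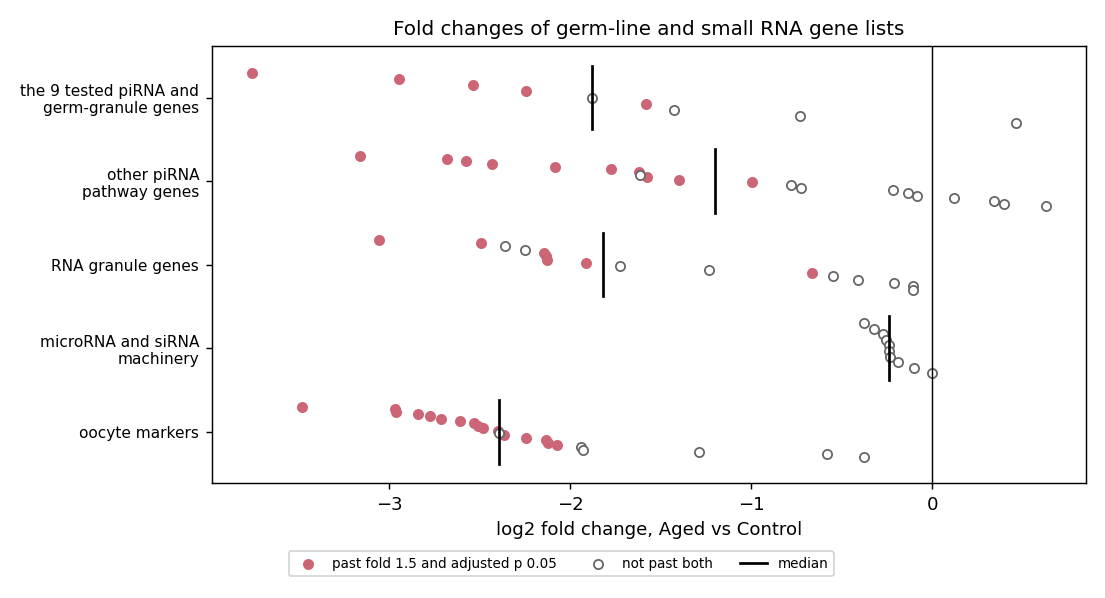
Log2 fold change in Aged vs Control for each tested gene of 5 lists, one dot per gene and a black line at the median. Filled dots are genes lower past a fold change of 1.5 and an adjusted p of 0.05, as were 6.06% of all genes. These number 10 of 20 other piRNA pathway genes, 7 of 16 RNA granule genes, 0 of 10 microRNA and siRNA genes and 16 of 22 oocyte markers.

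The pattern of the members over the 10 ovaries was summarised as their mean standardized log2 CPM, which was at least 0.26 in the Control ovaries, −1.37 to −0.26 in the Aged ovaries and −0.22 to −0.08 in the Aged+CF ovaries. Aged replicate 34 had the lowest value and Aged replicate 31 was close to the Aged+CF ovaries. Among 16736 other genes with a mean of at least 1 CPM, those with the most similar pattern were Zwilch (Pearson r = 0.980 over 10 ovaries), Timeless (0.980), Atad2 (0.973), Elavl2 (0.968) and Fbxo5 (0.967). Zwilch is a kinetochore protein, Timeless acts at replication forks, Atad2 is a chromatin ATPase, Elavl2 binds RNA and Fbxo5 inhibits the anaphase-promoting complex. These coefficients are a description, since the 3 groups alone separate the ovaries.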

How the data were processed

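The authors deposited one table with raw read counts and FPKM values per gene for the 10 ovaries. The submitters' processing notes name TopHat, Cufflinks 2.1.1 and GRCm38.p4, and strand use in the counting is not given in the sources used here. The deposited FPKM equal the count divided by a fixed length per gene and by the library total. The members and gene lists were chosen with earlier results of these data known. Counts were analysed with edgeR 4.0 in R 4.3 (low-count filter by group, which kept 18956 genes, TMM scaling, and a quasi-likelihood fit over all 10 ovaries), with Benjamini-Hochberg adjustment over the genes tested and a fold limit of 1.5. The standard error of a log2 fold change was derived from it and the F statistic. No p-value is given for the members. Alternatives were DESeq2 1.42 (its size factors and its Wald test), no filter, only the groups compared, a replicate block, and leaving out each ovary. On simulated data for Aged vs Control, the fit recovered 87.2% of 4-fold changes but 35.8% of 2-fold changes. A gene that did not pass at the adjusted p may therefore still differ. Within each group no library was a duplicate of another, and pairs across groups were not compared. Positions came from GENCODE M21 and promoters from RefSeq on GRCm38.p6. Named in the text were all members, the called genes of each list (at most 6, by size of change in Aged vs Control), 8 fixed genes (Asz1, Gtsf1, Tdrkh, Henmt1, Dazl, Ybx2, Dicer1 and Ago2), and the 5 genes most like the members.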

Additional observations from a re-analysis of the deposited data

Results flagged for a closer look

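In 1 of 32 sets of 4 Control values tested for a sample far from the others (the 10 members by CPM and by oocyte-marker reads, and 12 gene lists by summed CPM), 1 value stood out. The summed ciliated oviduct epithelium markers were at 120.1 CPM in Control replicate 33. About 1 in 20 such sets is marked by chance. None of the members' Control values stood out.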

How the results depend on the processing

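The signs of the members' log2 fold changes were kept in 135 of 135 alternative values for Aged vs Control, in 131 of 133 for Aged+CF vs Aged (the exceptions are Pld6) and in 129 of 135 for Aged+CF vs Control (Piwil4). Mov10l1 and Mael have no value in Aged+CF vs Aged with only the groups compared, since they then miss the filter. Same-numbered ovaries come from different animals and their deviations gave correlations of −0.185 to 0.153, with not every ovary closest to its own number, so the numbers do not pair them. With the replicate block, the number of genes called went from 2096 to 80 in Aged vs Control, from 1 to 0 in Aged+CF vs Aged (from 1509 to 888 at the unadjusted p) and from 34 to 9 in Aged+CF vs Control. The block gave 0 members, 0 other piRNA genes and 0 granule genes in Aged vs Control at the adjusted p. At the unadjusted p it gave 1, 1 and 0 in Aged+CF vs Aged.

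DESeq2's Wald test called 442 genes in Aged+CF vs Aged and 528 in Aged+CF vs Control, there with 4 members, 2 other piRNA genes and 3 granule genes. With only the groups compared, the calls were 2 and 487 genes. At the adjusted p, the other piRNA genes then numbered 5 for Aged against Control and 1 for Aged+CF against Control. In the latter comparison, 5 granule genes and 4 members passed as well. At the unadjusted p, Aged+CF against Aged gave 2 other piRNA genes, 3 granule genes and 1 member. Without the filter, 6 other piRNA genes passed in Aged vs Control, and 2 genes of the whole table did so in Aged+CF vs Aged. The cause was not tested.

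Leaving out each ovary in turn gave 1081 (without Control replicate 32) to 3112 calls in Aged vs Control, and 1 to 556 (without Aged replicate 34) in Aged+CF vs Aged, 1170 to 2360 there at the unadjusted p, and 7 to 348 in Aged+CF vs Control. At the adjusted p, members called ranged from 5 to 6 in Aged vs Control and from 0 to 4 in Aged+CF vs Control. Other piRNA genes ranged there from 3 to 10 and 0 to 1, and granule genes from 4 to 8 and 0 to 5. In Aged+CF vs Aged the ranges are at the unadjusted p. They were 1 to 3 for members, 3 to 6 for other piRNA genes and 2 to 6 for granule genes. Depth limits the members: Mov10l1 and Piwil1 had 0 to 5 reads in each Aged ovary, and a count of 0 does not show that a gene is not expressed. The settings without Kit, and the oocyte-marker ratios without Aged replicate 34, were chosen after seeing the data.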
